A study of Caenorhabditis elegans with 2 samples.

Results

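LIN-38 peaks that lay far from any annotated start of a protein-coding transcript were described in a chromatin immunoprecipitation sequencing (ChIP-seq) map of whole Caenorhabditis elegans larvae. A peak was taken as far when its summit, the base of highest signal given by the authors, lay more than 5000 bp from every annotated 5′ end of a protein-coding transcript in Ensembl. Of 5405 nuclear summits in the conservative list of the authors, 210 were far, which is 3.89% (95% Wilson interval 3.40 to 4.43, counting error over summits only). The other 5195 summits lay within 5 kb of such an end. The animals were of strain RW12236, in which TY1, EGFP and 3xFLAG tags were inserted into the endogenous lin-38 gene on chromosome II by CRISPR (allele st12236[lin-38::TY1::EGFP::3xFLAG] II). They were L4 larvae aged 48 hours, synchronised as starved L1 larvae after bleaching, and there was 1 group of 2 biological replicates. The description names an antibody against GFP, while the antibody field names lin-38. Every tissue of the larva was pooled in a sample, and no wild-type or input library was analysed here. Sequencing depth is unknown, since the lists give peaks and not reads.

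LIN-38 belongs to the synMuv A proteins, nuclear factors that, in parallel with the synMuv B group, hold the vulval fate in check in epidermal cells. Protein-coding promoters are crowded in the compact worm genome, so that sequence far from all of them is mostly in long introns, in repeats and between widely spaced genes. Such sequence also holds tRNA genes, which RNA polymerase III transcribes from the A box and the B box inside the gene, and small nucleolar RNA (snoRNA) genes, whose products guide the chemical modification of ribosomal RNA. Many worm messages are trans-spliced, so an annotated 5′ end can be a splice site rather than the place where transcription starts. The signal value of a peak is the authors' own score, whose scaling is not given in the sources used here, and it is used below only to describe and rank peaks of a list. A single group of replicates allows no test between conditions, and the shares below are given beside the same shares of the genome and of the other summits, with no test.

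The sequences under the strongest far summits showed letters that recurred between sites on different chromosomes, and the sites that carry the clearest examples are printed here from the RefSeq WBcel235 genome, which is the ce11 assembly. A recurring pattern was GAGCGC followed, after 2 bases of any kind, by TTGC. Capitals mark it, on either strand, in 4 of the 8 among the 25 strongest far summits that hold it. The first lies 58 bp before a tRNA-Glu gene, the third in an intron of rog-1, and the others between genes, and the summit is base 51 of each sequence.
M01E10.t1 upstream, chrIII:2032410-2032509, plus strand: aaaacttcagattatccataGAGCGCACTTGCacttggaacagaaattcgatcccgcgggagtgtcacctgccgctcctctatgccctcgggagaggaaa
Y37H2A.1 downstream, chrV:18115184-18115283, plus strand: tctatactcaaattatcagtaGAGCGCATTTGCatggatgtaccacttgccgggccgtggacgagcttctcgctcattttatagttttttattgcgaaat
rog-1 intron, chrII:1369448-1369547, plus strand: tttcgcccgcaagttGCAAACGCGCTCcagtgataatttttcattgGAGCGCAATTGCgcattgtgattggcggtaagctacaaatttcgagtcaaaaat
ptr-13 upstream, chrII:11169033-11169132, plus strand: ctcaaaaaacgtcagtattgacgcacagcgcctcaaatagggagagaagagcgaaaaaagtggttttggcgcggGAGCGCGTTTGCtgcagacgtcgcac

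Letters of a tRNA gene stood at 2 sites that share a run of 69 identical bases, the tRNA-Ala gene F15G9.t1 inside an intron of him-4 and the tRNA pseudogene C52E12.t1 inside an intron of unc-104. Capitals mark GGTTCGA, the core of the B box.
him-4 intron, chrX:9743584-9743683, plus strand: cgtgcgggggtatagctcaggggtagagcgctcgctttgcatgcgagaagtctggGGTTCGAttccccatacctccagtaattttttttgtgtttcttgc
unc-104 intron, chrII:7001586-7001695, plus strand: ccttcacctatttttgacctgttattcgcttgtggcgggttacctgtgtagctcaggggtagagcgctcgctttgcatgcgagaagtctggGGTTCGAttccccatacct

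Another pair lies between protein-coding genes with no annotated tRNA gene within 1 kb, and capitals there mark an A-box-like run, TGGC followed by 2 bases, AGT and, at once or after 1 base, GG, on either strand.
srsx-8 upstream, chrV:1561336-1561435, plus strand: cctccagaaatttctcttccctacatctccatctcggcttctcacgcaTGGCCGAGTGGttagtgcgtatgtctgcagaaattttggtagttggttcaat
pdfr-1 upstream, chrIII:6661810-6661909, plus strand: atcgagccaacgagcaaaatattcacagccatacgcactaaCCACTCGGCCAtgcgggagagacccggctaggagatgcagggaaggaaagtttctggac

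Sequence before 4 snoRNA genes is shown in the direction of the gene, with the first 10 bases of the gene in capitals after the 80 bases before it. The far summit is base 35, 41, 19 and 27 of these sequences in the order given.
F30H5.4, chrIII:502724-502813, plus strand: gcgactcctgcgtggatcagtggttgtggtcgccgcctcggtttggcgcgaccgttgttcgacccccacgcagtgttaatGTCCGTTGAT
H09I01.2, chrIV:8253014-8253103, plus strand: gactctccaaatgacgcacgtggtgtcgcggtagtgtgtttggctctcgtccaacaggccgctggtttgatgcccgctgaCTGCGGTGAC
K11C4.6, chrV:6888996-6889085, plus strand: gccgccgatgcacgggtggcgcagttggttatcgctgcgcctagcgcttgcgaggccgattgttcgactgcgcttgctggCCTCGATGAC
Y71D11A.7, chrIII:1122425-1122514, plus strand: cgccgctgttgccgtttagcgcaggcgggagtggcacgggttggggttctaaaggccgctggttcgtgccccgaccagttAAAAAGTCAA

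Far sequence held fewer summits than its share of the genome. Far summits made up 3.89% of nuclear summits, while 8.84% of nuclear bases lay beyond 5 kb of a protein-coding 5′ end, a ratio of 0.440. In far sequence there were 23.7 summits per Mb, against 56.8 per Mb in sequence within 5 kb. The median distance was 6615.5 bp, 134 of the 210 lay under 7500 bp, and 30 lay beyond 10000 bp. These 30 were 0.555% of nuclear summits, while 1.43% of nuclear bases lie that far out. The share of far bases under 7500 bp was not counted. The nearest protein-coding 5′ end was upstream of 138 far summits and downstream of the other 72, in the direction of its gene.

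The threshold cut through a continuous range. Just inside it were summits at 5005 bp from pwp-1 (signal value 187), 5005 bp from the filamin gene fln-1 (100.2) and 5008 bp from egrh-2 (99.95). Just outside it were summits at 4990 bp from rga-9 (225), 4988 bp from the copper transporter gene cua-1 (198) and 4984 bp from E01G4.6 (1869).

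On chromosome X the share of summits that were far was closest to the share of far bases. There 34 of 421 summits were far, or 8.08%, against 10.1% of the bases, a ratio of 0.799. On the autosomes the ratio lay between 0.333 on I and 0.436 on V. Chromosome I had 38 far summits of 1188, II had 23 of 928, III had 47 of 1116, IV had 50 of 999 and V had 18 of 753. Chromosome X held 16.2% of far summits (interval 11.8 to 21.8) and 20.2% of far bases, and 7.45% of the other summits. Far sequence on X had 19.0 summits per Mb, against 23.7 over all chromosomes, and sequence on X within 5 kb had 24.3 per Mb, against 56.8 over all chromosomes. Of the 34 far summits on X, 14 lay within 200 bp of a small RNA gene, and 7 lay in or within 138 bp of a single noncoding gene, C30E1.9.

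**Figure D1:**
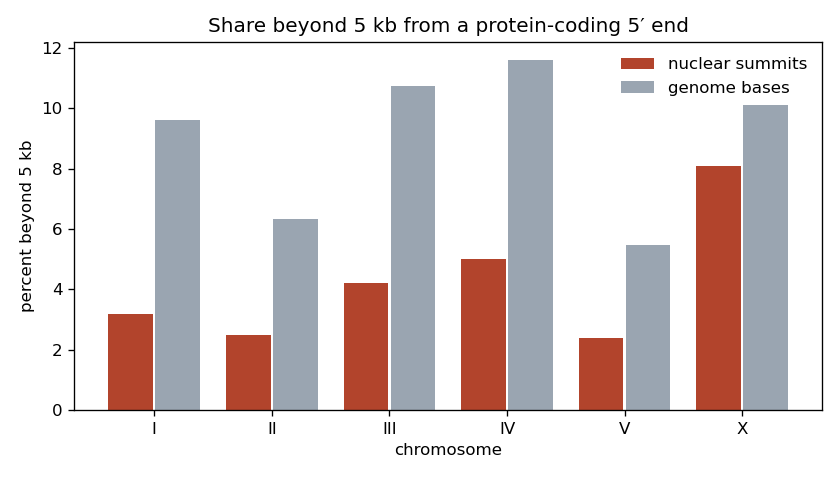
Percent of nuclear summits (red) and of genome bases (grey) that lie beyond 5 kb of every protein-coding 5′ end, for each nuclear chromosome. The red bar is below the grey one on all 6 chromosomes, and the pair is closest on X, at 8.08% and 10.1%.

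Signal values of far summits were spread over the same range as most others, without the very strongest. The far summits ranged from 2.90 to 3988 with a median of 185, and the others from 2.03 to 15912 with a median of 212, a log2 difference of -0.20 between the medians. Of the 100 strongest nuclear summits 1 was far, and of the 1000 strongest 27 were. From the strongest to the weakest quartile of nuclear peaks, 40, 52, 55 and 63 peaks were far.

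Thresholding by the irreproducible discovery rate (IDR) keeps peaks whose ranks repeat between the lists compared, so closeness of the replicates at far summits was in part selected for and is given as a description. In the replicates' own ranked lists, 206 of 210 far peaks (98.1%) had an overlapping peak in both, against 98.8% of all nuclear peaks. The median signal value at far summits was 99.5 in replicate 1 and 96.0 in replicate 2. The log2 ratio of replicate 1 to replicate 2 had a median of -0.00058 and lay within 1 of 0 at 200 of the 206, and each replicate was the higher at 103. Under the stricter thresholded list of each replicate, 128 far peaks (61.0%) overlapped a peak in both lists, against 64.6% of all nuclear peaks, and 47 (22.4%) overlapped one in neither, against 17.5%. Both shares lie near those of all peaks. The 4 far peaks with no value in replicate 1 include a tRNA-Thr gene on X, R01H5.t1 (signal value 609, 329 in replicate 2), and the tRNA-Ala gene C52E12.t3 in unc-104 (390, 192 in replicate 2).

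The largest differences between replicates were at shared peaks rather than at single sites. Around C30E1.9 on X, the summit at 16930006 had 19.5 in replicate 1 and 89.5 in replicate 2, and the summit at 16931958 had 123 in replicate 1 and 30.4 in replicate 2. The value of 123 is also that of a neighbouring summit, because a replicate's peak can be the closest to several summits of a wide peak. The next largest difference, 171 in replicate 1 and 75.6 in replicate 2, was at a summit on IV 758 bp upstream of the microRNA gene mir-52.

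**Figure D2:**
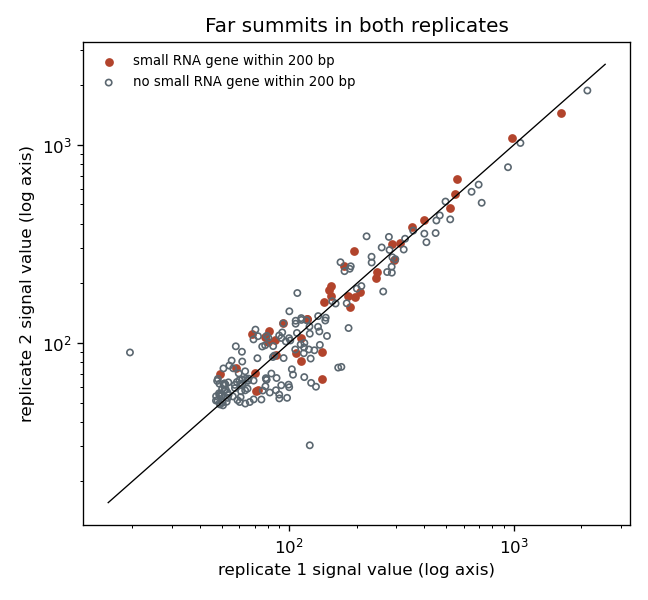
Signal value of each far summit in replicate 1 (horizontal) and replicate 2 (vertical), both on log axes, for the 206 with a value in both, with the line of equal values. Filled red points have a small RNA gene within 200 bp and open grey points have none. Points lie along the line, and the single points far to its left and below it are both at C30E1.9.

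Small RNA genes had far more far summits than their share of far sequence. A tRNA, snRNA, snoRNA, ribosomal RNA or microRNA gene lay within 200 bp of 43 far summits (20.5%, interval 15.6 to 26.4), while such windows cover 0.865% of far bases. Among the other summits the share was 8.70%, with 0.650% of all nuclear bases. Far summits with such a gene had a median signal value of 333 (82.5 to 3008), against 167 (2.90 to 3988) for the 167 without. The 452 other summits with such a gene had a median of 366, so the high values were not particular to far sites. Of the 43, 37 overlapped a peak in both replicates' thresholded lists, against 91 of the 167. Over all nuclear peaks, this overlap was 99.6%, 95.7%, 49.7% and 13.2% from the strongest to the weakest quartile of signal value. In the same order, these quartiles held 13, 17, 9 and 4 of the 43, and the part of signal value was not tested. The sites with a small RNA gene also had more G and C, a median of 52% in 100 bp, against 45% at those without, and the part of base composition was not tested.

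tRNA genes were the main group, at 30 of the 43. The summit lay inside the tRNA gene at 24, and its median position was 28 bp past the 5′ end of genes with a median length of 72 bp. Of 57 tRNA genes that themselves lie beyond 5 kb, 31 had a far summit within 200 bp (54.4%), and of the 555 within 5 kb, 301 had a summit within 200 bp (54.2%). The tRNA genes were of many kinds and not of a single isotype. Glycine tRNA genes had 5 far summits, alanine 4, isoleucine and valine 3 each, and 10 other isotypes had 1 or 2 each. The highest was the summit 58 bp before the tRNA-Glu gene M01E10.t1 on III, at 3008, with 1623 in replicate 1 and 1446 in replicate 2. Next came tRNA-Ala F15G9.t1 in an intron of him-4, which encodes the extracellular matrix protein hemicentin, at 1119, with 546 in replicate 1 and 567 in replicate 2. The tRNA-Trp gene Y95B8A.t1 in an intron of nas-30 had 1002, with 518 in replicate 1 and 480 in replicate 2. Replicates were close at each of these. The lowest tRNA values were 107 at tRNA-Ile B0344.t3 in wrt-9, which encodes a hedgehog-related protein, and 108 at a second summit beside tRNA-Pro C48C5.t1.

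snoRNA genes had their far summits before the gene and not in it. All 8 lay upstream, 21 to 62 bp from the 5′ end, with a median of 45 bp. Their signal values were in the strongest or second quartile, and all 8 overlapped a peak in both replicates' thresholded lists. Of all nuclear peaks in these quartiles, 99.6% and 95.7% did so. The strongest was 27 bp before ZK994.7, in an intron of the peroxidasin gene pxn-1 on V, at 2056, with 979 in replicate 1 and 1082 in replicate 2. On I, Y23H5B.10 had 1241, with 560 in replicate 1 and 670 in replicate 2. K11C4.6 lies in an intron of unc-70, which encodes beta-spectrin, and had 479, with 245 in replicate 1 and 229 in replicate 2. The lowest value, 212, was at a snoRNA gene on IV. Of 27 snoRNA genes beyond 5 kb, 8 had a far summit within 200 bp (29.6%), and of 319 within 5 kb, 93 had a summit (29.2%). The single snRNA site was 30 bp before Y69A2AR.36 on IV, at 825, with 398 in replicate 1 and 417 in replicate 2. Among snRNA genes, 1 of 14 beyond 5 kb and 49 of 115 within 5 kb had a summit, 7.14% and 42.6%. None of 17 ribosomal RNA genes beyond 5 kb had one, and none of the 3 within 5 kb.

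**Figure D3:**
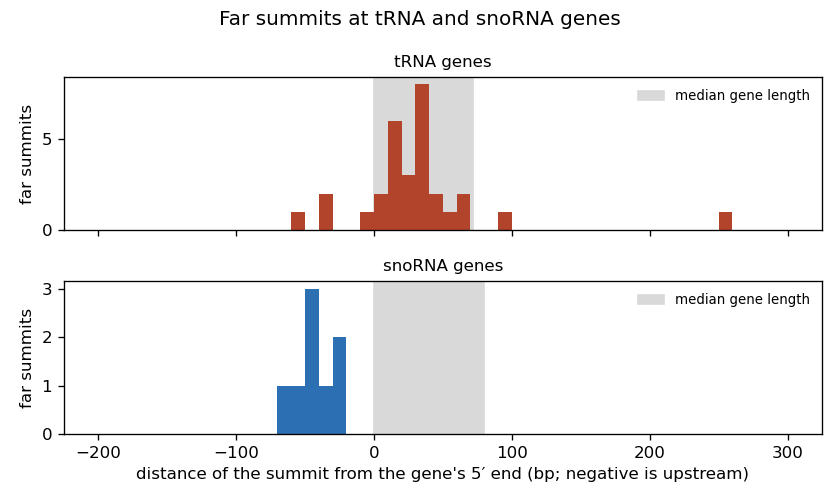
Number of far summits by distance from the 5′ end of the nearest tRNA gene (top, 30 summits) and snoRNA gene (bottom, 8 summits), in 10 bp bins with negative values upstream, for summits within 200 bp of the gene. Grey bands show the median gene length. tRNA summits stand mostly inside the gene, around a median of 28 bp, and all snoRNA summits stand 21 to 62 bp before it.

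MicroRNA genes had few far summits, with low signal values. They were the nearest small RNA gene of 4 far summits within 200 bp, with values of 162 at mir-8196.1, 138 at mir-48, 105 at mir-52 and 82.5 at mir-1829.3. mir-48, a let-7 family microRNA of the developmental timing pathway, had its summit 156 bp upstream, with 70.7 in replicate 1 and 70.5 in replicate 2. Its relative mir-241 lies close by on V and had a summit 401 bp upstream, at 229, with 137 in replicate 1 and 97.7 in replicate 2. Of 42 microRNA genes beyond 5 kb, 4 had a far summit within 200 bp (9.52%), and of 219 within 5 kb, 19 had a summit (8.68%). The farthest of all far summits, on III at 20269 bp from the 5′ end of gcn-1 and inside a 6429 bp intron of that gene, lay 238 bp upstream of mir-229 and had 4 small RNA genes within 1 kb. Its signal value was 254, with 100.05 in replicate 1 and 144 in replicate 2. A summit on III at 416, with 186 in replicate 1 and 237 in replicate 2, was 224 bp from mir-80.

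Longer noncoding genes and pseudogenes held a handful of sites, among them the strongest. The 8 far summits in a pseudogene, leaving aside those near small RNA genes and in coding genes, had a median of 671, against 188 for the 27 other summits so placed. They were 3.81% of far summits in 6.54% of far bases. Of these 8, 3 lay in the pseudogene D1065.2 on V and 2 in Y48A6C.2 on III. The summit at V 4063762 in D1065.2 was the highest far summit, at 3988 and rank 89 of all nuclear peaks, with 2126.5 in replicate 1 and 1882 in replicate 2. Further along D1065.2, a summit at 4066345 had 710 and one at 4067998 had 632. The outer pair, 4236 bp apart, carry a run of 68 identical bases on opposite strands, in capitals here, which contains the GAGCGC pattern. The summit is base 40 of the second sequence and lies 19 bp past the end of the first.
D1065.2 left, chrV:4063656-4063743, plus strand: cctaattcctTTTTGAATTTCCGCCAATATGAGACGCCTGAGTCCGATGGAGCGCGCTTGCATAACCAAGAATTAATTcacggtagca
D1065.2 right, chrV:4067950-4068037, minus strand: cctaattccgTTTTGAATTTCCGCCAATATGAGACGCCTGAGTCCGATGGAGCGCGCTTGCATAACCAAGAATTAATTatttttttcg

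In Y48A6C.2 the summits had 1024, with 496 in replicate 1 and 517 in replicate 2, and 950, with 521 in replicate 1 and 421 in replicate 2.

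The 7 summits at C30E1.9, an unclassified noncoding RNA gene on X, lay within 2871 bp and 3 merged regions. Their signal values were between 57.1 and 378, and all 3 regions overlapped a peak in both replicates' thresholded lists, against 64.6% of all nuclear peaks. Overlap was judged by the whole peak, which several of these summits share, so it does not speak for each summit. rncs-1, a noncoding RNA known in C. elegans to bind Dicer, had far summits 502 bp away at 163, with 90.2 in replicate 1 and 54.8 in replicate 2, and 198 bp away at 131, with 57.3 in replicate 1 and 59.1 in replicate 2. piRNA genes, which are clustered on IV, were within 1 kb of 24 far summits, of which 23 were on IV. No annotated gene other than a piRNA gene lay within 1 kb of 34 far summits, whose median signal value was 163.

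Protein-coding gene bodies held far summits about in proportion to their length. Of the 210, 92 (43.8%, interval 37.3 to 50.6) lay in a protein-coding gene, against 41.7% of far bases and 43.5% of the other summits. They fell in 72 genes, and 64 of the 92 were in the gene whose own 5′ end was the nearest. Introns took nearly all of them. Leaving aside those near small RNA genes, 67 of the 210 far summits (31.9%) were intronic, in 26.5% of far bases. Of the same 210, 3 (1.43%) were in coding exons, in 13.6% of far bases, and 6 (2.86%) in UTRs, in 1.46%. The highest exon summit was in W02H5.8, at 132, with 75.1 in replicate 1 and 51.8 in replicate 2. The weakest exon summits, at 23.3 in smg-6 and 17.2 in dapk-1, are side summits of stronger intronic peaks. With those near small RNA genes counted again, an intron of the host gene held the summit at 83 of the 92. These introns had a median of 1551 bp and a longest of 14446 bp, and 52 of 83 were over 1000 bp. Intron length was not measured at the other summits or over far bases, and the distance rule itself favours long introns.

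The strongest intronic site was in mod-5, the serotonin transporter gene on I, at 1715, with 942 in replicate 1 and 771 in replicate 2. Y47G6A.21 on I followed at 1332, with 697 in replicate 1 and 630 in replicate 2. In rog-1 on II the summit shown above had 915, with 468 in replicate 1 and 440 in replicate 2, and in zipt-15, a zinc transporter family gene on IV, a summit had 868, with 452 in replicate 1 and 415 in replicate 2. Replicates differed little at these 4 sites, and the central 41 bases of all but the rog-1 summit recur in the nuclear genome. Among the weaker intronic sites, 3 were picked out after their values were seen. daf-5, the worm Sno and Ski homologue of the dauer pathway, had 165, with 87.2 in replicate 1 and 57.7 in replicate 2, in the 14446 bp intron. lin-29, a zinc finger gene of the larval-to-adult switch, had 109, with 47.2 in replicate 1 and 53.8 in replicate 2, and overlapped a peak in neither thresholded list. ssl-1, which encodes an SWI2 and SNF2-like ATPase, had 131 and was also in neither list.

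**Figure D4:**
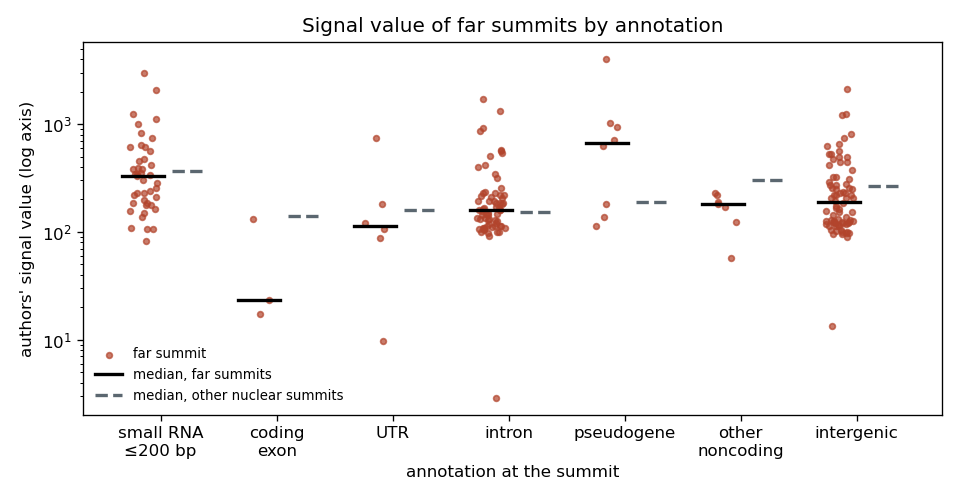
Signal value (log axis) of each far summit by the annotation at its summit, each summit given to the first class from left to right that applies, with the median of far summits (black line) and of other nuclear summits (dashed grey line). Medians of far summits stand highest in pseudogenes, at 671, and near small RNA genes, at 333, and the highest single point is the pseudogene summit at 3988.

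A protein-coding 3′ end lay within 500 bp of 30 (14.3%), against 38.3% of the other summits, while such positions cover 4.87% of far bases and 18.3% of all nuclear bases. Intergenic sites, with none of these annotations, were 76 (36.2%) in 48.8% of far bases, and their median signal value was 188, against 264 for the other intergenic summits. The strongest was on X at 59267, 99 bp before the pseudogene Y73B3A.18, at 2108, with 1070 in replicate 1 and 1022 in replicate 2. The next were the site downstream of Y37H2A.1 on V, at 1235, with 719 in replicate 1 and 510.0 in replicate 2, and a site on X upstream of K02D3.1, at 1224, with 648 in replicate 1 and 580 in replicate 2.

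Some far summits came in groups. There were 8 stretches in which 3 or more far summits followed each other within 10 kb, and they held 37 of the 210. The longest runs, with 7 summits each, were at C30E1.9 and in the introns of ric-8 and Y69A2AR.31 on IV, where values ran from 128 to 825. ric-8 encodes a guanine nucleotide exchange factor for heterotrimeric G proteins. In ppfr-1, a gene of a protein phosphatase regulatory subunit on I near mir-2, 6 summits ran from 113 to 560. A stretch of 2066 bp on III around the tRNA-Glu genes M01E10.t1 and M01E10.t2 had 5, from 192 to 3008, and 3 lay within 1648 bp of unc-104, the gene of a synaptic vesicle kinesin, at 345 to 571. Where peaks touch, the summits are not separate sites, and the 210 fell in 198 merged regions.

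Sequence at far summits was richer in G and C than far sequence as a whole, with a median of 47% in 100 bp, against 35.0% over far bases. The median at the other summits was 45%. The GAGCGC pattern shown above, chosen after the sequences were seen, was within 100 bp windows at 23 far summits (11.0%), against 9.12% of the other summits and 0.188% of far windows. It was first noticed under the strongest far summits, so that its share among them (8 of the 25 strongest) and the signal values of its carriers reflect that choice. Some carriers also share longer identical runs, so the 23 are not all separate sequences. The ptr-13 upstream site shares 67 bases with a carrier on I, and the Y37H2A.1 downstream site 31 with a carrier on III. The pattern was at 23 of 176 far summits on the autosomes (13.1%), against 9.23% of the other autosomal summits. On X it was at none of 34, against 30 of 387 other summits (7.75%). The 34 are few, 7 of them are summits at C30E1.9 in 3 merged regions, and the difference was not tested. Chromosome I and chromosome III had 7 far summits with it each. These were 18.4% and 14.9% of their far summits, against 10.7% and 9.73% of the other summits there.

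Among patterns searched on both strands in the same windows, GGTTCGA, the B-box core, was at 27 far summits (12.9%), against 4.12% of the other summits and 0.968% of far windows. GAGAG was at 31.9%, against 26.5% of the other summits and 11.9% of far windows. CTGCGTCT was at 4.76%, against 5.89% and 0.406%. GGCGGGAA, the core that E2F factors bind, was at 1.90%, against 1.54% and 0.811%, and TTCGAATC, whose letters overlap the B-box core in part, at 1.90%, against 1.06% and 0.430%. The E box CACGTG was at 2.86%, against 3.23% and 1.42%. TTTGAA, the cell cycle homology region element, was at 23.8%, against 21.3% and 30.5%, and TATAAA at 5.71%, against 6.31% and 10.7%.

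Letters like those of tRNA boxes also stood where no tRNA gene is annotated. The B-box core or the A-box-like run was at 36 far summits (17.1%), against 5.54% of the other summits and 1.09% of far windows, and 19 of these 36 had no small RNA gene within 200 bp. The A-box-like run was chosen after the sequences of far summits were seen, so its part in this far share reflects that choice. That run was at 13 far summits (6.19%), against 1.85% of the other summits. Of these 13, none was among the 30 at tRNA genes and 1 was near a snoRNA gene. The other 12 had no small RNA gene within 200 bp, so the name of the run rests on its letters alone. Some of the 19 lay in or beside annotated tRNA pseudogenes, such as C52E12.t1 in unc-104 at 571, with 280 in replicate 1 and 295 in replicate 2, and Y22D7AR.t1 on III at 182. A group of 5, on 4 chromosomes, shared runs of 23 to 71 identical bases in all 10 pairs and had values between 252 and 657. The pair printed above belongs to it, at 657 upstream of srsx-8 (328 in replicate 1 and 336 in replicate 2) and 624 upstream of pdfr-1 (278 in replicate 1 and 343 in replicate 2). All 5 overlapped a peak in both replicates' thresholded lists. So did 99.6% and 95.7% of all nuclear peaks in the strongest and second quartiles of signal value, which hold them.

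Some of the far summits lie in repeated sequence. The 41 bases centred on the summit occurred a second time in the nuclear genome at 32 far summits (15.2%), against 6.28% of the other summits, with up to 38 copies at a far summit. Exact runs of 20 bases or more in 200 bp windows were shared by 59 far summits with another at least 400 bp away, and 20 of these 59 had a small RNA gene within 200 bp. How reads that match several places were treated is not given in the sources used here, and its part in these values was not tested.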

How the data were processed

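ChIP-seq of LIN-38-EGFP was given as peak lists on ce11, per the labels, for 2 biological replicates of 1 group. Each deposited peak carries a signal value and a score, a scaled IDR of at least 830 in the conservative list, both made by the authors, and a summit offset. The sources used here do not name the aligner, the peak caller or the treatment of controls, and depth is unknown. Of 5431 peaks in the conservative list, made from the 2 samples together, 26 mitochondrial ones were left out. Replicate values come from each replicate's own ranked list, from the overlapping peak with the nearest summit. Genes are from Ensembl release 115 (19973 protein-coding genes, 29304 distinct 5′ ends) and sequence from RefSeq, both WBcel235. Each summit was given to the first of 7 classes that applied, with small RNA genes within 200 bp taken before coding exons, UTRs, introns, pseudogenes, other noncoding genes and intergenic sequence. Background shares were counted over every base, or over non-overlapping 100 bp windows for sequence patterns. Intervals are Wilson 95% intervals and cover counting error over summits, which are not replicates.

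Sites named in the text were drawn from a list, and not every site of the list is named. The list held the 25 far summits with the highest signal value, the farthest on each chromosome and the 3 on each side of the threshold. It also held the highest of each class, stretches of 3 or more and the 3 largest replicate differences. The members, lists and named-site rule were chosen with earlier results of these data known, and further sites (mir-48, mir-241, mir-80, rncs-1, daf-5, lin-29, ssl-1 and others in the text) and the GAGCGC and A-box-like patterns after their values or sequences were seen. Alternatives were other distances, 5′ ends, peak lists, windows and overlaps. Scripts were tested on simulated data and used Python 3.11.15, pandas 2.3.3, numpy 2.4.6, scipy 1.17.1 and matplotlib 3.10.9.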

Additional observations from a re-analysis of the deposited data

How the results depend on the processing

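Among the distances and 5′ ends tried, 10000 bp and the 5′ ends of every biotype changed most values beyond the tolerances given below. With 2500 bp, 754 summits (13.95%) were far, and with 10000 bp 30 (0.555%), of which 26.7% lay in protein-coding genes, 26.7% near small RNA genes and 10% on X, with a log2 difference of median signal value of 0.032, opposite in sign to the -0.20 at 5000 bp. With pseudogene 5′ ends added, 3.16% were far. With 5′ ends of every biotype, 53 (0.981%) were far, of which 60.4% lay in protein-coding genes, 0% near small RNA genes, by construction, and 3.77% on X, and 49.1% overlapped both thresholded lists. Among the stronger 50% of peaks, 92 were far, of which 35.9% lay in protein-coding genes, 32.6% near small RNA genes, and 93.5% overlapped both thresholded lists. With the ranked lists, 98.1% overlapped both. Inside a small RNA gene lay 11.9%. From a single replicate's thresholded list, 24.5% to 28.4% lay near small RNA genes. In 200 bp windows, shares were 45.7% for GAGAG, 6.19% for CACGTG, 40.5% for TTTGAA, 5.24% for TTCGAATC, 18.1% for GGTTCGA, 16.7% for TATAAA, 9.05% for CTGCGTCT and 4.29% for GGCGGGAA, as more bases were searched.

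Of 94 alternative values, 65 lay within the tolerances, among them the 24.5% and the 4.29% given above. The tolerances were 1.5 times for counts and the Wilson interval for shares. For the signal difference the tolerance was the SD of single-summit replicate ratios, which is wide for a median. That difference was -0.54 with 5′ ends of every biotype and between -0.28 and -0.14 under the alternatives not named for it here. RefSeq mRNA 5′ ends (223 far summits) and leaving out summits with repeated central bases (178) were added after seeing the data and gave values among the 65. No paired analysis was possible because there is 1 group. Unknown depth, the lack of control libraries here and the unknown treatment of reads that match several places limit every value.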
